A study of Mus musculus with 4 samples.

Results

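Igfbp2, Igfbp3, Igfbp4, Igfbp5 and Igfbp7, which encode insulin-like growth factor (IGF) binding proteins, were followed in the developing and adult mouse heart together with the ligand gene Igf1 and the receptor gene Igf1r. These 7 genes were chosen by name, with earlier results of these data known, and all 7 were found among the 27998 genes of the tables. Single-cell RNA sequencing had been done on CD31+/CD45- cells sorted from hearts of C57Bl6J mice, with no genotype or treatment given in the labels. The 4 libraries came from pooled animals, 37 at embryonic day 12 (E12), 48 at E15, 21 at postnatal day 2 (P2) and 6 adults of 8 weeks. With 1 library per stage there was no replicate, so stages could not be tested. Cell classes could be paired by library, but over 4 libraries the smallest p an exact two-sided test allows is 0.125. Intervals given here are exact 95% intervals for counting error only.

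IGF1 and IGF2 are secreted growth factors that signal through the receptor tyrosine kinase encoded by Igf1r. Most IGF in tissue fluid is held by binding proteins, which can store the ligand, carry it or keep it from the receptor, and which are cut by proteases. Igfbp7 encodes a related protein that binds IGF with low affinity and is deposited around blood vessels. In the heart the endocardium lines the chambers, while coronary endothelial cells form the capillaries, arteries and veins of the muscle wall.

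Cells were put into 4 classes by sums of unique molecular identifiers (UMIs, 1 per captured transcript) of marker genes. Endocardial cells had more UMIs of Npr3 and Tmem108 than of Fabp4, Cldn5 and Aplnr, and coronary cells had 2 or more of the latter and more of them than of the former. The artery class had 3 or more UMIs of Cxcl12, Glul, Alpl and Nebl, and non-endothelial cells had 0 of Pecam1, Cdh5 and Egfl7. From E12 to the adult, in stage order, there were 1716, 2115, 1082 and 75 endocardial cells and 113, 1254, 4596 and 4077 coronary cells. The artery class held 332, 69, 711 and 1875 cells and the non-endothelial class 2995, 1867, 13 and 133. The libraries used 5732, 6062, 5884 and 4242 barcodes with a median of 1241, 1013, 4532 and 1510 UMIs, so P2 was the deepest. A level is the sum of a gene's UMIs over a class divided by all UMIs of that class and scaled to a total of 1000000 (CPM), and since 1 end of each transcript is counted, levels of different genes need no correction for length.

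The class names held for some groups only. At E12 no cell of the artery class was a coronary cell and 77.4% were non-endothelial by the rule, and at E15 59.4% were non-endothelial. The 7 general endothelial markers summed to 278 CPM in the E12 artery class against 2165 in coronary cells, while 8 fibroblast and mesenchyme markers summed to 3587 CPM. That class is therefore called by its 4 rule genes at E12 and E15, and as an artery class only at P2 and in the adult, where 95.5% and 99.15% of it were coronary cells. Of the endocardial cells, 34.7% at E12 and 25.8% at E15 had no UMI of Pecam1, Cdh5 and Egfl7 and fell into the non-endothelial class too. In the adult 101 of the 133 non-endothelial cells were also coronary, with Fabp4, Cldn5 and Aplnr at a sum of 6461 CPM. The 13 P2 non-endothelial cells are given as levels with no comparison. Fewer or more cells of a kind within a class and a different level per cell cannot be told apart in these sums. Digestion and the removal of dead cells also differed between embryonic and postnatal hearts, so stage and preparation cannot be told apart. Summed over 8 immediate-early and heat-shock genes, coronary cells held 515, 980, 4881 and 8643 CPM from E12 to the adult and endocardial cells 1157, 1215, 2139 and 1557 CPM. The part of these changes in the stage and class differences was not tested.

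The members split between endocardial and coronary cells. Igfbp5 was lower in coronary than in endocardial cells at all 4 stages by the 2-fold rule used here, and Igfbp4 was lower at P2 and in the adult. Igfbp3 was higher in coronary cells at all 4 stages, Igfbp2 at E12 and E15, and Igfbp7 from E15 on. Igf1 was lower in coronary cells at E12, and in the adult Igf1 was higher, on 1 endocardial UMI, and Igf1r lower. A gene was compared where it had 20 or more UMIs in both classes together, and it counted as higher or lower at a ratio of 2-fold or more. At E12, 2 of the 7 members were higher and 2 were lower in coronary cells, where 27.3% of all genes compared were past 2-fold in either direction. At E15, 3 were higher and 1 was lower, against 18.1% of all genes. At P2, 2 of 6 were higher and 2 were lower, against 21.6%. In the adult, with only 75 endocardial cells, 3 of 6 were higher and 3 lower, against 36.5%. Some of these ratios lay close to 2-fold. Igfbp3 at P2 was 1.81 without barcodes of 10 or more UMIs of the immediate-early and heat-shock genes and 1.94 within the study's limits on UMIs, genes and mitochondrial share. Igf1 at E12 was 0.513 without barcodes that carried markers of other cell types, and Igf1r in the adult 0.561 without its highest cell.

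Paired by library, in a test added after seeing the data, the coronary level of Igfbp3 was above the endocardial one in 4 of 4 libraries, by a mean of 2.63 on the log2 scale (SD 1.41, exact sign-flip permutation test p = 0.125). Igfbp5 was lower in 4 of 4 (mean log2 ratio -2.36, SD 0.550), as were Igfbp4 (-1.43, SD 1.19) and Igf1r (-0.57, SD 0.325), each with the same exact p of 0.125, the smallest possible here. Igfbp7 was higher in 3 of 4 (exact p = 0.25) and Igf1 lower in 3 of 4 (exact p = 0.875). Igfbp2, with 3 libraries above 0 in both classes, was higher in 2 (exact p = 0.5). The libraries are of different stages, so their spread holds stage differences as well. Each library weighs the same in this test, yet the adult ratios of Igf1 (4.76) and Igfbp3 (18.9) each rest on 1 endocardial UMI. From E12 to P2 the Igf1 ratios were 0.411, 0.508 and 0.609. The P2 ratio of Igfbp2 rests on 10 coronary and 5 endocardial UMIs, under the minimum of 20 used above.

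**Figure D1:**
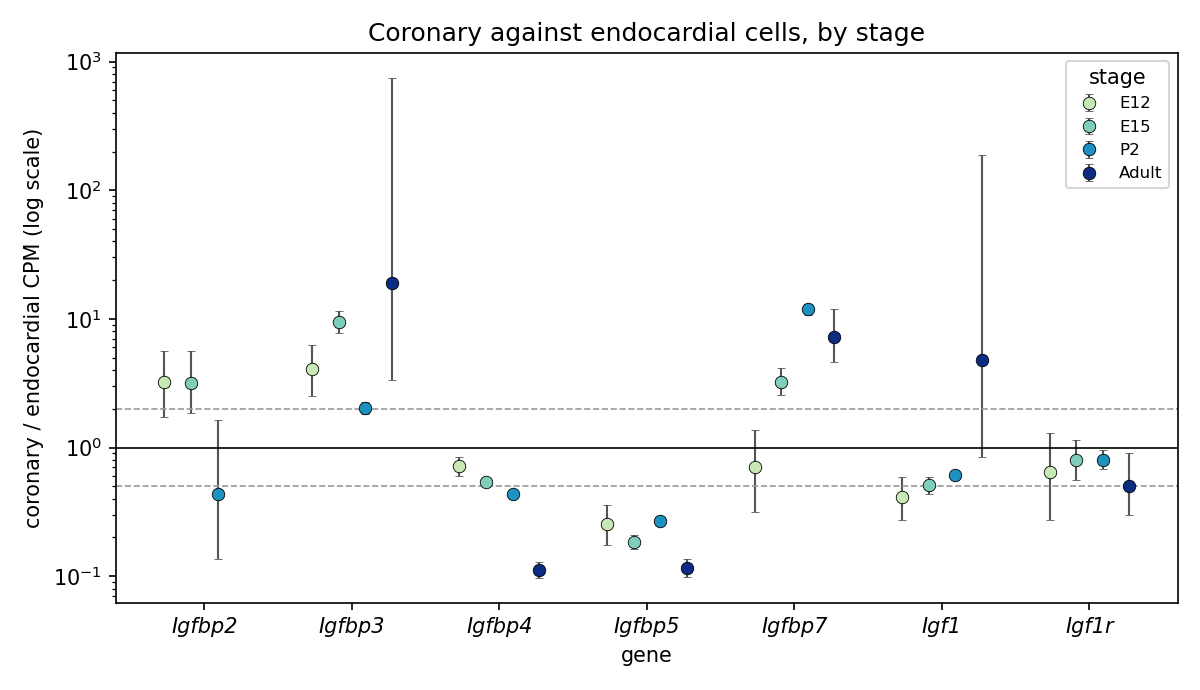
Ratio of the coronary to the endocardial level (CPM, log scale) of each gene at each stage, with exact 95% intervals for counting error, a solid line at 1 and dashed lines at 2-fold. Igfbp3 lies at or above the upper dashed line at every stage, from 2.02 at P2 to 18.9 in the adult, Igfbp5 lies below the lower one, and Igfbp7 crosses from 0.705 at E12 to 11.9 at P2. The Igfbp2 point at P2 rests on 15 UMIs and was not compared.

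Igfbp5 encodes a binding protein that also attaches to the extracellular matrix. In endocardial cells its level was 555, 977, 2018 and 910 CPM from E12 to the adult (E12 interval 526 to 585). In coronary cells it was 140, 180, 538 and 106 CPM at the same stages. At every stage endocardial cells thus stood first, with the coronary level at 0.252 (0.174 to 0.354), 0.185 (0.163 to 0.208), 0.267 (0.260 to 0.274) and 0.116 (0.0990 to 0.137) of it. The endocardial level was 2.07-fold higher at P2 than at E15 (1.98 to 2.16), and the adult level was 0.451 of that at P2. The E15 and adult endocardial intervals overlapped. Barcodes that carried 3 or more UMIs of other-cell markers were also left out. This kept 1880 of 2115 endocardial cells at E15, 384 of 1082 at P2 and 28 of 75 in the adult. The adult then stood at 0.832 of P2, and the P2 step was 1.92. The 8 fibroblast and mesenchyme markers summed to 1402, 1341, 1844 and 3774 CPM in endocardial cells from E12 to the adult. The highest of these genes gave 643 CPM at P2 and 2357 in the adult, where 2 of the 8 were at 0. In cells thinned to 500 UMIs 21.1%, 29.1%, 43.9% and 32.0% of endocardial cells had an Igfbp5 UMI. Thinning evened the depth at which the gene was read, while the classes were still read at full depth.

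Within the coronary class Igfbp5 was held by few cells. At P2, 1331 of the 4596 coronary cells (29.0%) had an Igfbp5 UMI, and the 10% of cells with the most UMIs of the gene held 87.7% of them. In the adult 162 of 4077 cells (3.97%) had an Igfbp5 UMI, 760 UMIs in all. These cells also carried more markers of the endocardium at P2, and of veins and lymphatics in the adult. At P2 the 7 endocardial markers, among them the rule genes Npr3 and Tmem108, summed to 873 CPM in coronary cells with an Igfbp5 UMI and 197 in those without. In the adult the vein list (Vwf, Prss23, Ptn) was 776 against 106 CPM, and the lymphatic list (Prox1, Lyve1, Mmrn1, Ccl21a, Reln) 1045 against 26.2 CPM.

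Splitting the coronary class by markers of the endocardium, veins, valves and lymphatics gave very unequal Igfbp5 levels. Veins are coronary vessels, so a vein marker does not set a cell outside the coronary endothelium. Cells with 2 or more vein UMIs held 45.6% of the coronary Igfbp5 UMIs at P2 and 50.3% in the adult. At P2 coronary cells with an Npr3 or Tmem108 UMI held 1848 CPM, those with 2 or more vein UMIs 1319, those with 2 or more valve UMIs 1626 and those with 2 or more lymphatic UMIs 1409. The 3178 coronary cells with none of these held 90.8 CPM (86.1 to 95.7). The 1418 cells with any of them made up 30.9% of the coronary cells and held 89.1% of the Igfbp5 UMIs. In the adult the 277 such cells, 6.79% of the class, held 83.4% of them, and the other 3800 stood at 19.5 CPM. Without such cells the coronary level was 0.0450 of the endocardial one at P2 and 0.0214 in the adult. The cells left out were coronary ones with more Igfbp5. Leaving them out could only lower the ratio, so it does not test the order of the classes.

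**Figure D2:**
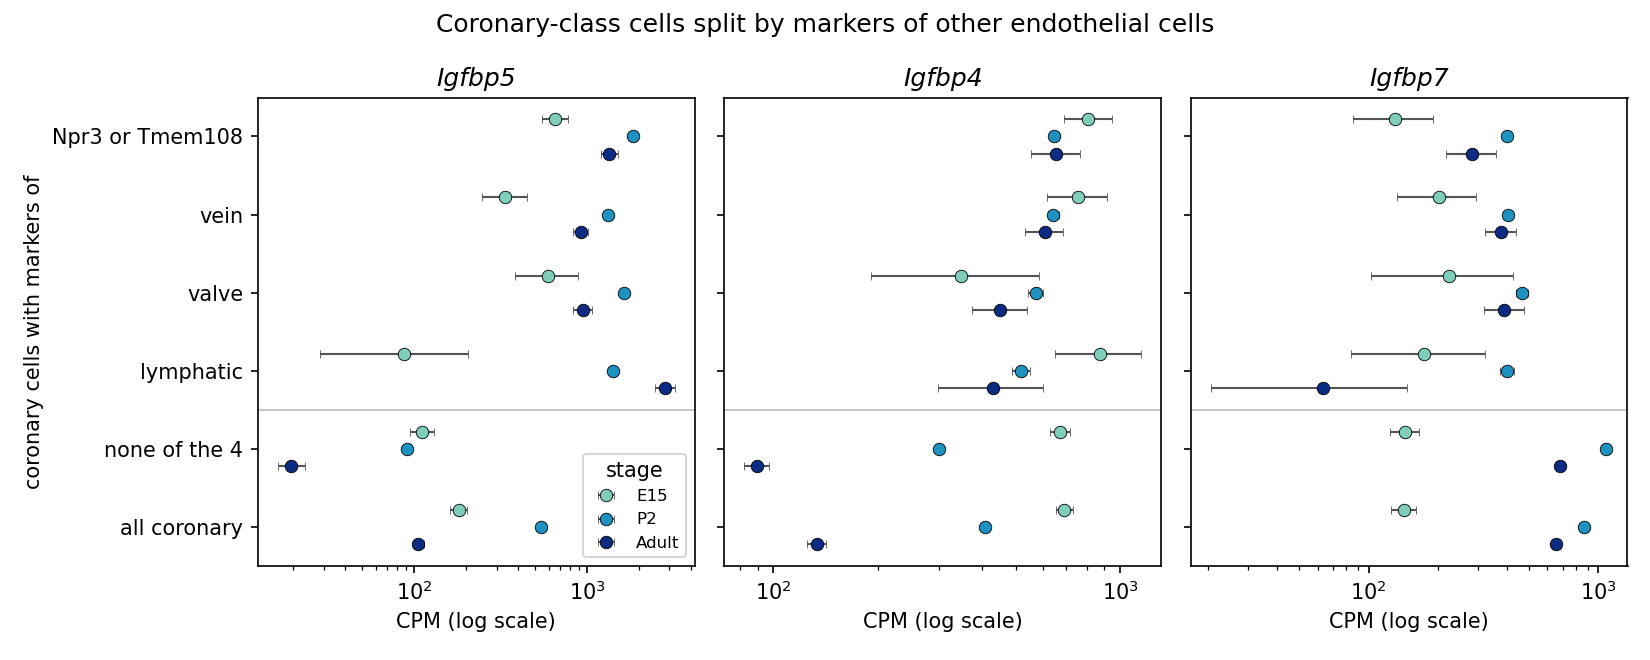
Level (CPM, log scale) of Igfbp5, Igfbp4 and Igfbp7 in coronary cells that carried markers of the endocardium (Npr3 or Tmem108), veins, valves or lymphatics, in those with none of the 4, and in all coronary cells, at E15, P2 and in the adult, with exact 95% Poisson intervals. The marker groups overlap and need not be complete. At P2 and in the adult Igfbp5 lies at 918 CPM or more in each marker group and at 90.8 and 19.5 CPM in the cells with none, while Igfbp7 lies lower in the marker groups than in the cells with none.

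This bears on the rise of Igfbp5 in coronary cells from E15 to P2, which was 2.98-fold over the whole class (2.66 to 3.36). Without the cells that carried vein, lymphatic, valve or endocardial markers the levels were 111 CPM at E15 and 90.8 at P2, and the ratio was 0.815. A deep cell shows a marker more readily, and the markers took out 14.2% of the E15 and 30.9% of the P2 cells. With markers read after thinning every cell to 500 UMIs, 6.73% and 10.8% were taken out and the rise was 2.60-fold (2.30 to 2.96). The direction of the P2 step in the remaining coronary cells thus depended on the depth at which the markers were read. The decrease from P2 to the adult did not, at 0.196 for the whole class (0.182 to 0.211) and 0.0974 in the cells without markers after thinning. The cells with markers after thinning went the other way, with the adult at 1.62-fold of P2 (1.465 to 1.78). They were 10.8% of the coronary cells at P2 and 2.65% in the adult.

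Igfbp4 encodes a binding protein that is mostly known to hold IGF back from its receptor. It was among the 2 highest members of the endocardium at every stage, at 854, 1277, 930 and 1188 CPM in stage order (E12 interval 818 to 891). Coronary cells held 613, 690, 408 and 133 CPM. From P2 to the adult the levels went opposite ways, with 1.28-fold in endocardial cells (1.12 to 1.45) and 0.326 in coronary cells (0.305 to 0.349). In stage order the coronary level was 0.718, 0.541, 0.439 and 0.112 of the endocardial one (adult interval 0.0975 to 0.129). After thinning, the share of endocardial cells with an Igfbp4 UMI lay between 37.1% and 48.1% at the 4 stages, while that of coronary cells was 29.2%, 29.0%, 17.1% and 4.41%.

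As with Igfbp5, the coronary cells with these markers held more Igfbp4. At P2 it was 606 CPM in the 1418 cells with vein, lymphatic, valve or endocardial markers and 300.2 in those with none, and in the adult 529 and 89.5 CPM. The decrease from P2 to the adult was as large in the cells with none after thinning, at 0.293 (0.272 to 0.315). In the cells with markers after thinning the adult was instead at 1.34-fold of P2 (1.14 to 1.56). Over 12 groups the log2 levels of Igfbp4 and Igfbp5 had a Pearson r of 0.818. The groups were the endocardial cells, the coronary cells and the cells chosen by Cxcl12, Glul, Alpl and Nebl, each at 4 stages. The last were 77.4% and 59.4% non-endothelial at E12 and E15. At P2 and in the adult 95.5% and 99.15% of them were coronary cells too. This r is a description, since groups share libraries and cells, and no other pair of members had as high an r.

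Igfbp4 (chromosome 11, 99041244 to 99054392, plus strand of GRCm38) and Igfbp5 (chromosome 1, 72857932 to 72874884, minus strand) are on different chromosomes. Because their log2 levels had the highest Pearson r of any pair of members, the 250 bases before the RefSeq start of each are shown. They are from the GRCm38.p6 promoter windows, 5′ to 3′ on the strand of the gene. Letters in capitals mark a match on either strand to the TATA box letters TATAAA. The GC box letters GGGCGG and the letters CCAAT were searched in the same way, and none of these motifs overlap in the windows. The Igfbp4 window is chr11:99040994-99041243 and the Igfbp5 window chr1:72874866-72875115. Among 32851 RefSeq windows of this length, 12.4% held TATAAA, 32.7% GGGCGG and 33.9% CCAAT.
Igfbp4: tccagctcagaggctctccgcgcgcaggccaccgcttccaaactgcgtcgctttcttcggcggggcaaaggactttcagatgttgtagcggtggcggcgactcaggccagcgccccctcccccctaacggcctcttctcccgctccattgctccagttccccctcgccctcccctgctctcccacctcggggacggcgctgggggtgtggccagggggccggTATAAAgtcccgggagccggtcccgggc
Igfbp5: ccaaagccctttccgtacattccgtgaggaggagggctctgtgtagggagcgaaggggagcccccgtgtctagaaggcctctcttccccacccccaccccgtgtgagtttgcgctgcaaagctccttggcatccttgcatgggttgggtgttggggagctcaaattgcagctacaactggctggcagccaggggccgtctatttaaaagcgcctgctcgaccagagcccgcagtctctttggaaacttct
In the Igfbp4 window TATAAA was found once, beginning 28 bases before the start, and neither other motif was found. None of the 3 was found in the Igfbp5 window. Only exact letters were searched, so this does not show that the Igfbp5 window lacks a TATA-like stretch. The Igfbp5 window begins at 72874866 and so reaches into the annotated gene, which runs to 72874884. The share of G and C was 69.2% in the former and 58.8% in the latter.

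Igfbp3 encodes the main carrier of IGF in blood and is known as a gene of endothelial tip cells, which lead new vessel sprouts. Its coronary level was 119 CPM (79.9 to 171) at E12 and 442 (411 to 475) at E15, then 136 in P2 and 90.3 in adult cells. Endocardial cells held 29.5, 47.0, 67.4 and 4.79 CPM, the last from 1 UMI. Coronary cells were highest at E15, and the E12 interval overlapped those of P2 and the adult. The coronary level was 4.05-fold the endocardial one at E12 (2.54 to 6.30) and 9.41-fold at E15 (7.72 to 11.5). P2 cells had a ratio of 2.02 (1.81 to 2.27) and adult cells one of 18.9 (3.37 to 746). From E15 to P2 coronary cells went to 0.308 of their level (0.284 to 0.334) and endocardial cells to 1.43-fold (1.16 to 1.78). In an alternative, barcodes were left out that carried 3 or more UMIs of mural, fibroblast, macrophage or cardiomyocyte markers, or 5% or more hemoglobin UMIs. The endocardial ratio was then 0.775 and the coronary to endocardial ratio at P2 was 3.64. This kept 1880 of 2115 endocardial cells at E15 and 384 of 1082 at P2. Their median depth before the filter was 1003 and 4532 UMIs. A deep cell reaches 3 marker UMIs more readily, and the part of depth in this change was not tested.

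Gates by tip, angiogenic or mature capillary, vein, lymphatic, valve and large artery markers took endothelial cells only. These are the cells outside the non-endothelial class. The study of these libraries reported Cxcr4, Esm1, Dll4, Unc5b and Igfbp3 together as tip markers enriched in a cluster of these cells. The tip gate is thus no separate support for a link of Igfbp3 with these genes. Cells with tip markers had high Igfbp3. In the 20 E15 cells with 3 or more UMIs of Cxcr4, Esm1, Dll4 and Unc5b it was 2338 CPM (1845 to 2922), in the 205 such cells at P2 524 (487 to 564) and in the 88 of the adult 179 (130 to 241). Cells with 3 or more UMIs of the angiogenic capillary list (Kcne3, Apln, Pcdh17, Tmem255a) held 226, 647, 154 and 36.1 CPM from E12 to the adult. Both gates thus had their highest level at E15, but a fixed limit of 3 UMIs is reached more readily in a deep cell. Endothelial cells had a median of 1037 UMIs in the E15, 4532 in the P2 and 1513 in the adult library. The tip gate took 0.477%, 3.49% and 2.14% of these cells, and the angiogenic capillary gate 1.76%, 25.2% and 1.87%. The part of depth in the order of the stages was not tested. The E15 and P2 tip levels lay above those of every other endothelial gate of 20 or more cells, with no overlap of intervals. The adult tip interval overlapped that of the large artery gate, at 149 CPM (124 to 177). Lists of other cell types (mural, fibroblast and mesenchyme, epicardial, macrophage, cardiomyocyte) gated non-endothelial cells only. Such a gate took 3 or more UMIs of its list and more than of any other of these lists. The 35 adult cells so gated by fibroblast and mesenchyme markers held more Igfbp3 than the tip gate, at 372 CPM (270 to 499). Cells with vein markers held 31.8 CPM at E15 and 72.2 at P2. Of the endocardial cells, 9.98% at E15 and 42.3% at P2 had 3 or more UMIs of the vein list. Of the coronary cells, 2.23% and 12.2% did. In E15 endocardial cells 1 of the 3 vein genes gave 669 of the summed 747 CPM. The vein gate thus also took endocardial cells. The 30 E15 cells gated by macrophage markers had 0 Igfbp3 UMIs. At E12 only 8 cells passed the tip gate, with 9 Igfbp3 UMIs in all.

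**Figure D3:**
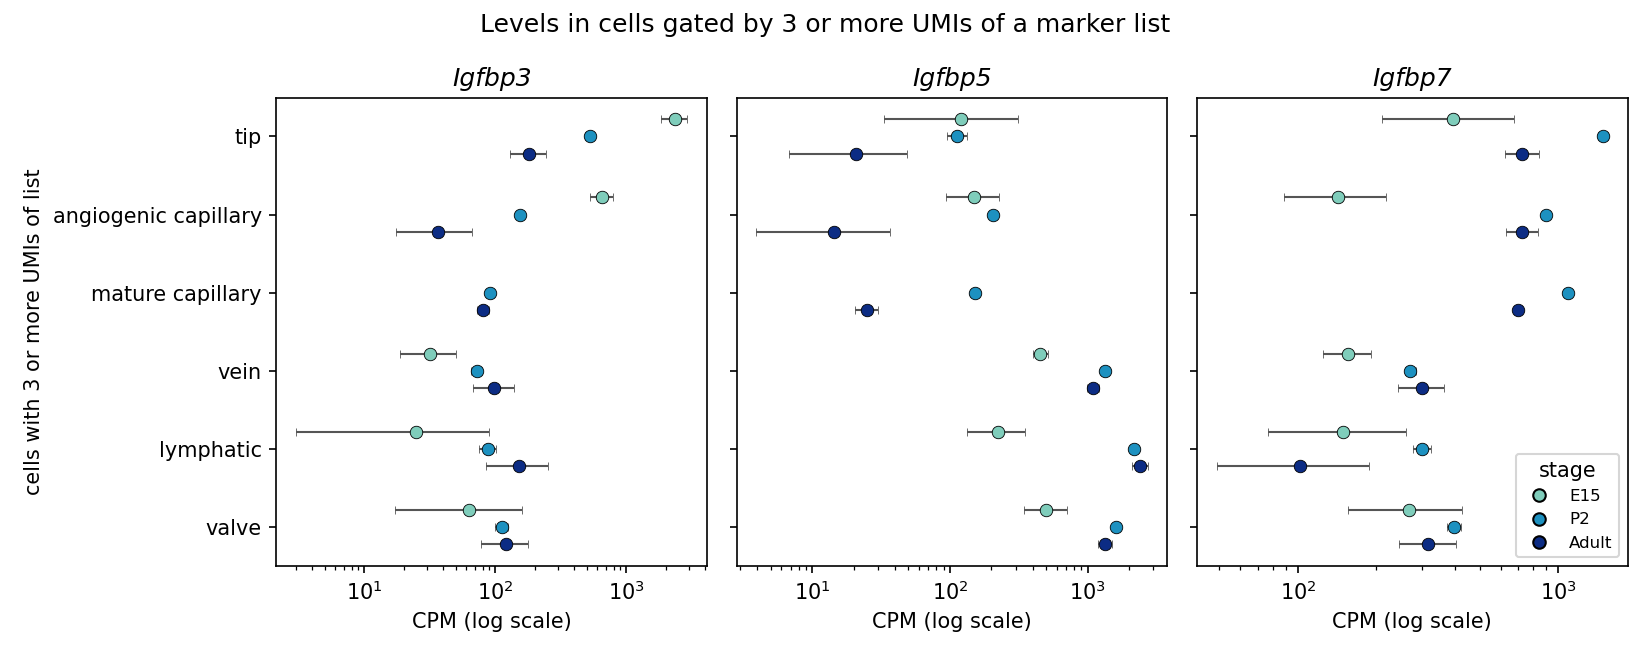
Level (CPM, log scale) of Igfbp3, Igfbp5 and Igfbp7 in gated endothelial cells at E15, P2 and in the adult, with exact 95% Poisson intervals. A gate took cells outside the non-endothelial class with 3 or more UMIs of the tip, angiogenic capillary, mature capillary, vein, lymphatic or valve list. Gates of fewer than 20 cells are not shown. The vein gate also took endocardial cells, of which 42.3% at P2 had 3 or more UMIs of its list. Of these 6 gates the tip gate has the highest Igfbp3 level (2338, 524 and 179 CPM), with overlapping intervals in the adult, Igfbp5 in the vein, lymphatic and valve gates at P2 and in the adult, and Igfbp7 in the tip and capillary gates at P2 and in the adult.

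The coronary cells with an Igfbp3 UMI differed from the other coronary cells in other members. At E15 the 306 cells with the gene held Igfbp2 at 58.6 against 16.8 CPM, a ratio of 3.50 (1.88 to 6.57), and Igf1 at 56.3 against 168 CPM, a ratio of 0.334 (0.209 to 0.511). The tip list was 410 against 122 CPM there. Igf1 was also lower in cells with Igfbp3 at P2, at 0.596 (0.542 to 0.654), and in the adult, at 0.420 (0.197 to 0.793). At E12, with 20 cells, the Igf1 ratio was 1.47 (0.565 to 3.42), so that no difference was detectable at this depth. Igfbp4 was higher in cells with Igfbp3 at E15 (1.61), P2 (1.35) and in the adult (2.26).

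Igfbp7 encodes an IGF binding protein-related protein of the vessel wall. Its coronary level was 37.0 CPM (16.9 to 70.3) at E12, from 9 UMIs in 7 of 113 cells, and 142 (125 to 161) at E15. It was 872 CPM in P2 cells (860 to 884) and 654 in adult cells (635 to 673). Coronary cells went up 3.84-fold from E12 to E15 (1.99 to 8.50) and 6.13-fold from E15 to P2 (5.39 to 6.99), and the adult was at 0.750 of P2 (0.726 to 0.774). Endocardial cells stayed between 43.7 and 91.01 CPM at the 4 stages. The coronary to endocardial ratio was 0.705 at E12 (0.315 to 1.38), where no difference was detectable, and 3.25, 11.9 and 7.18 at the later stages. Without barcodes that carried markers of other cell types it was 1.76 at E12 and 15.4 at E15, so the E12 direction was not fixed. Thinned to 500 UMIs, 1.77%, 6.82%, 28.9% and 28.1% of coronary cells had an Igfbp7 UMI, against at most 2.67% of endocardial cells.

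In the main values at P2 Igfbp7 was also the 1 member past 2-fold between the artery class and the other coronary cells. It was at 1540 against 733 CPM, a ratio of 2.103 (2.04 to 2.17). At this comparison 1 of 6 members was higher and none lower, where 8.33% of all genes were past 2-fold. In the adult the levels were 686 and 617 CPM (ratio 1.11, 1.05 to 1.18). Igfbp3 stood at 1.68 at P2 and 1.24 in the adult. Igfbp5 was lower in the artery class, at 0.519 at P2 (0.488 to 0.550) and 0.177 in the adult (0.145 to 0.214), where it was the 1 of 6 members past 2-fold against 5.51% of all genes. Igf1 was at 0.522 at P2 (0.461 to 0.589), so that both it and Igfbp5 lay just short of the 2-fold limit. At P2 no alternative gave either of them a higher ratio. The lowest were 0.132 (Igf1) and 0.0900 (Igfbp5), with classes read from counts thinned to 500 UMIs. With the study's limits, or with the artery class kept within coronary cells (added), 3 members were past 2-fold at P2. In the adult the Igfbp5 ratio was 0.719 without coronary cells that carried vein, lymphatic, valve or endocardial markers, and no longer past 2-fold. Igf1 at 0.482 then was.

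Igfbp7 and Igfbp5 had unequal levels across coronary cells at P2. Coronary cells with an Igfbp7 UMI (3105) held Igfbp5 at 253 CPM and those without at 1172, a ratio of 0.216 (0.208 to 0.224). Taken the other way, Igfbp7 was 510 CPM in coronary cells with an Igfbp5 UMI and 1057 in those without. In the adult the latter pair was 397 and 670 CPM (ratio 0.594, 0.506 to 0.693). At E15 it was 140 and 143 CPM (ratio 0.982, 0.681 to 1.38), and no difference was detectable.

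Igfbp2 encodes a binding protein that is abundant in the fetus. Its coronary level was 70.0 CPM (40.8 to 112) at E12 from 17 UMIs, 27.4 (20.0 to 36.5) at E15, 0.423 (0.203 to 0.778) at P2 from 10 UMIs and 0 in the adult. Endocardial cells held 21.8, 8.58, 0.965 and 0 CPM. Both classes went down at each step to P2, where coronary cells were at 0.0155 of their E15 level (0.00695 to 0.0310) and endocardial cells at 0.112 (0.0331 to 0.306). A count of 0 in the adult allows up to 0.417 CPM in coronary and 14.4 CPM in endocardial cells. Coronary cells held 3.21-fold the endocardial level at E12 (1.74 to 5.61) and 3.19-fold at E15 (1.86 to 5.63).

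**Figure D4:**
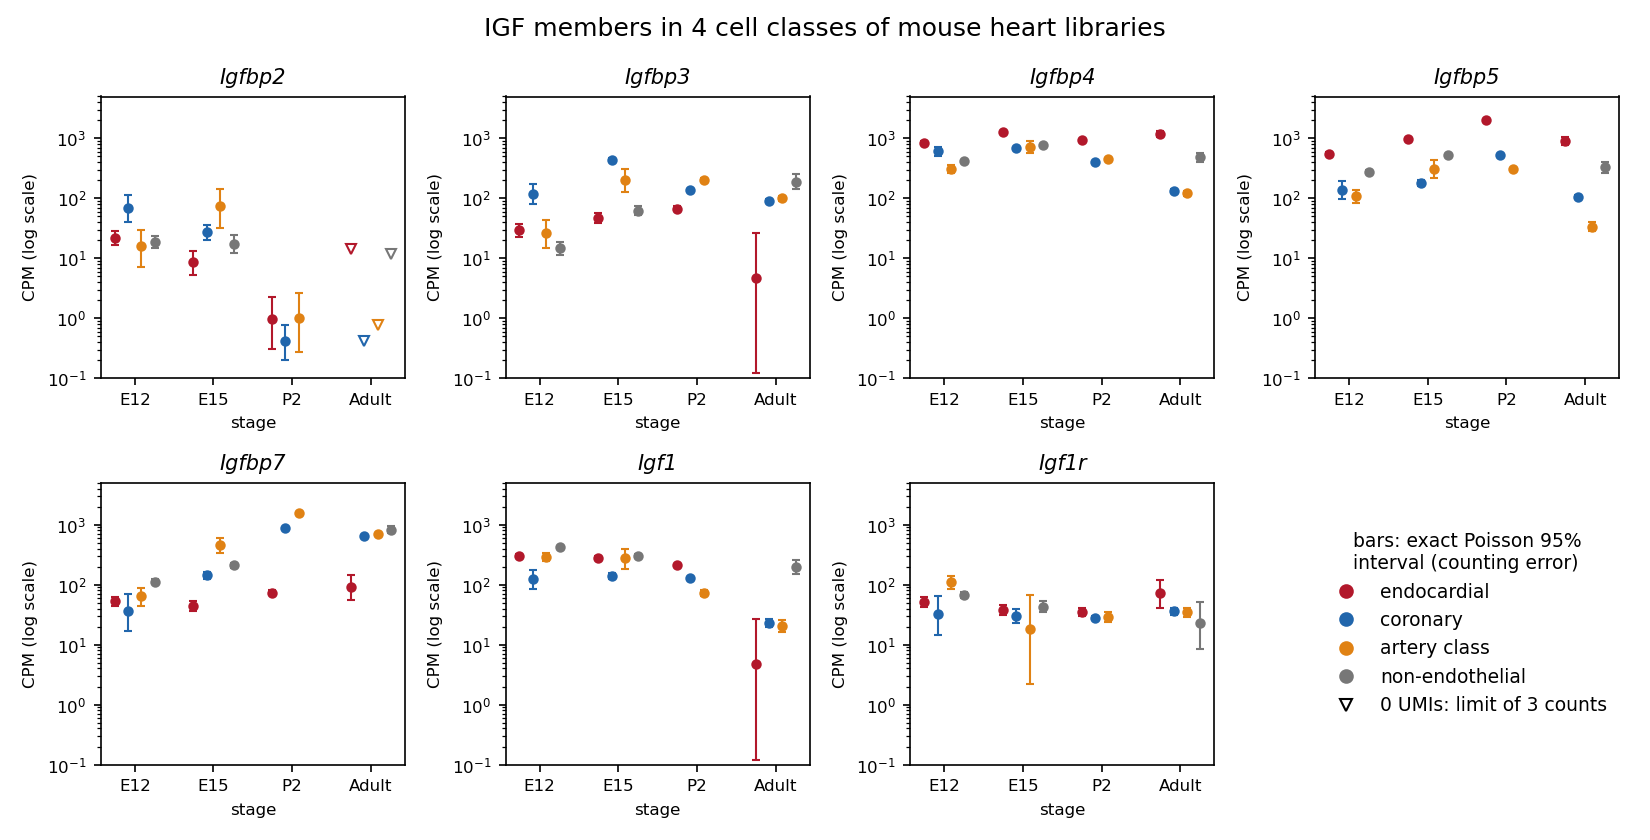
Levels (CPM, log scale) of the 7 genes in endocardial, coronary, artery-class and non-endothelial cells at each stage, with exact 95% Poisson intervals, open triangles for the limit that a count of 0 allows, and no point for classes under 50 cells. At E12 and E15 most of the artery class is non-endothelial. Igfbp2 falls from 70.0 CPM in E12 coronary cells to 0 in the adult, Igfbp7 rises in coronary cells from 37.0 to 872 CPM at P2, and Igf1 drops in coronary and endocardial cells in the adult.

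Igf1, the ligand, was highest in non-endothelial cells except at P2. Those cells held 419 CPM (399 to 439) at E12, 301 (278 to 326) at E15 and 198 (148 to 261) in the adult, and the 13 cells of P2 held 3 UMIs. Endocardial cells held 301, 276, 211 and 4.79 CPM, the last from 1 UMI, and coronary cells 124, 140, 129 and 22.8 CPM. The adult endothelial levels lay below those of every earlier stage, at 0.177 of P2 in coronary cells (0.1505 to 0.207) and 0.0227 in endocardial cells (0.000573 to 0.127). Non-endothelial barcodes with 3 or more UMIs of fibroblast and mesenchyme genes, and more than of any other non-endothelial list, held 520 CPM at E12. They held 398 CPM at E15 and 321 in the adult, the last over 35 cells. At E15 the non-endothelial and endocardial intervals overlapped.

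Between coronary and endocardial cells Igf1 was at 0.411 at E12 (0.275 to 0.591), 0.508 at E15 (0.436 to 0.590) and 0.609 at P2 (0.568 to 0.653). In the adult the ratio was 4.76, but with 1 endocardial UMI its interval ran from 0.843 to 189. At P2 coronary cells with an Igfbp5 UMI held 197 CPM of Igf1 and those without 93.7 (ratio 2.104, 1.96 to 2.26). The P2 coronary cells with vein, lymphatic, valve or endocardial markers, which held most Igfbp5 UMIs, had Igf1 at 207 CPM (197 to 217) and those with none at 85.8 (81.2 to 90.6).

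Igf1r, the receptor, had similar coronary levels at the 4 stages. Its coronary level was 32.9, 30.4, 28.3 and 35.9 CPM from E12 to the adult, and the adult was at 1.27-fold of P2 (1.09 to 1.47), while the intervals of the other stage steps included 1. Endocardial cells held 51.3 CPM (42.8 to 61.1), 38.0, 35.1 and 71.8 (40.2 to 118). The coronary to endocardial ratio had an interval that included 1 at E12 and E15 and was 0.806 at P2 (0.683 to 0.954) and 0.4995 in the adult (0.297 to 0.905). In the endocardium the adult was 2.05-fold over P2 (1.12 to 3.46), from 15 UMIs, and 1.81-fold without the highest cell. The highest Igf1r level of any class was 110 CPM (84.3 to 141), in the E12 cells with 3 or more UMIs of Cxcl12, Glul, Alpl and Nebl, most of which were non-endothelial.

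Against all endothelial cells, non-endothelial cells had 1 of 7 members higher and 1 lower at E12, where 11.6% of all genes were past 2-fold, and the same numbers at E15, against 9.55%. At both stages Igfbp7 was the higher one, at 2.08 (1.76 to 2.46) and 2.59 (2.25 to 2.97), and Igfbp3 the lower one, at 0.353 (0.259 to 0.476) and 0.336 (0.277 to 0.405). In the adult 4 of 6 were higher and none lower, against 33.9% of all genes. These were Igf1 at 9.59 (6.84 to 13.2), Igfbp4 at 2.81, Igfbp5 at 2.30 and Igfbp3 at 2.17. Without barcodes of 10 or more UMIs of the immediate-early and heat-shock genes Igf1 was at 2.18, Igfbp4 at 1.44 and Igfbp3 at 1.23, and with classes from thinned counts Igfbp5 was at 1.27. Those genes summed to 11188 CPM in the adult non-endothelial and 8365 in the endothelial cells. Free RNA gives UMIs of a gene to cells that do not express it, and at E12 the barcodes of 100 or fewer UMIs held Igfbp4 at 740 CPM, Igfbp5 at 392 and Igf1 at 316. In the 20 E12 non-endothelial cells gated by macrophage markers Igfbp4 had 12 UMIs in 30.0% of cells (252 CPM, median depth 2210 UMIs). Igfbp3 had 0 there.

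Counted by stage, coronary cells had 2 members higher and 1 lower at E15 than at E12, against 18.5% of all genes past 2-fold, 2 higher and 2 lower at P2 than at E15, against 24.9%, and 3 of 6 lower in the adult than at P2, against 24.8%. In endocardial cells 1 of 7 was lower at E15, against 8.64%, 1 higher and 1 lower at P2, against 18.6%, and 1 of 6 higher and 3 lower in the adult, against 30.6%. Each of these shares of members is above that of all genes, but 7 genes chosen with earlier results known are no sample of all genes. The median ratio of all genes compared lay between 0.911 and 1.12 in the coronary to endocardial and stage comparisons.

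Of the 19 other genes of the pathway, the ligand gene Igf2 and the receptor gene Igf2r, whose product takes IGF2 up for breakdown, followed the endocardial side. Igf2 was 1900, 2602, 1558 and 244 CPM in endocardial and 741, 923, 393 and 37.8 CPM in coronary cells. At E12 the barcodes of 100 or fewer UMIs held Igf2 at 1330 CPM, and those between 100 UMIs and the cutoff at 3363. Igf2r was 381, 435, 416 and 163 CPM against 78.2, 123, 111 and 41.7 CPM, and the coronary level was between 0.205 and 0.282 of the endocardial one. Both were lower in coronary cells at all 4 stages. Of the list, 0 of 11 genes compared were higher and 5 lower in coronary cells at E12, 0 of 10 and 4 at E15, 1 of 14 and 5 at P2, and 2 of 11 and 4 in the adult. Over all genes, in stage order, 5.37%, 5.66%, 11.2% and 22.6% were higher and 21.9%, 12.4%, 10.4% and 13.9% lower. Htra1, a protease gene, was the one higher at P2, at 72.2 against 29.0 CPM, and it was 3.63-fold higher in the artery class than in other coronary cells there (3.29 to 3.997).

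In the other comparisons the share of all genes past 2-fold in either direction stands beside each count of the pathway list. In the artery class 1 of 13 was higher and 1 lower at P2 (8.33% of all genes), and 0 of 11 higher and 1 lower in the adult (5.51%). Endocardial cells had 0 of 13 higher and 2 lower at E15 than at E12 (8.64%), none of 12 past it from E15 to P2 (18.6%), and 2 of 11 higher and 5 lower in the adult than at P2 (30.6%). Coronary cells had 1 of 9 higher and none lower in the first of these steps (18.5%), 2 of 13 higher and 1 lower in the next (24.9%), and 3 of 14 higher and 4 lower in the last (24.8%). Non-endothelial against endothelial cells had 3 of 14 higher and 2 lower at E12 (11.6%), 4 of 14 higher and none lower at E15 (9.55%), and 2 of 12 higher and 2 lower in the adult (33.9%). Igfbp6, a binding protein with a preference for IGF2, reached 244 CPM in adult endocardial cells (182 to 321), with 51 UMIs in 25 of 75 cells, against 2.90 CPM at P2. The sum of the fibroblast and mesenchyme markers was higher in adult endocardial cells too, as given above for Igfbp5. Not all of these markers were higher, as 2 of the 8 were at 0 in the adult and none at P2. The part of these markers in the Igfbp6 difference was not tested. Igfbp1, Igfals, Igfbpl1 and Pappa2 had at most 4 UMIs in the endocardial and coronary class of any stage.

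The genes most like each member over the same 12 groups were taken from 5909 genes with a mean of 20 CPM or more, by Pearson r of log2(CPM + 10), as a description. They were Smtnl2 (0.947), Ctsk (0.943) and Slc44a1 (0.924) for Igfbp5, and Cdc42ep5 (0.937), Eif3i (0.914) and Nr2f2 (0.909), the last a gene of veins, for Igfbp4. For Igfbp3 they were Sh3kbp1 (0.909), Ankrd37 (0.905) and Lpar4 (0.891), and for Igfbp7 Stom (0.948), Rbp7 (0.944) and Bnip3 (0.941). For Igfbp2 they were Ndufc1 (0.967), Mpp6 (0.951) and Gfer (0.9497), for Igf1 Pafah1b3 (0.973), Marcks (0.968) and H3f3a (0.958), and for Igf1r Coa5 (0.920), Efhd2 (0.913) and Ctcf (0.887). Among so many genes and only 12 points some high values arise in any case, and the groups share libraries, depth and cells.

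In the annotation Igfbp2 (chromosome 1, 72824503 to 72852474, plus strand) and Igfbp5 lie end to end with 5457 bases between them, and Igfbp3 (chromosome 11, 7206086 to 7213923, minus strand) lies 3539 bases from Igfbp1 in the same manner. Igfbp7 (chromosome 5, 77349240 to 77408041, minus strand) overlaps the opposite-strand gene Polr2b by 85 bases, and Igf1 (chromosome 10, 87858265 to 87937042, plus strand) overlaps Igf1os on the opposite strand. Igf1r is at chromosome 7, 67952827 to 68233668, plus strand. The neighbours Igfbp2 and Igfbp5 had unlike levels, with an r of -0.158 over the 12 groups.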

How the data were processed

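Hearts of each stage were pooled, digested, sorted for CD31+/CD45- cells, frozen and thawed. Libraries were built with the 10x Genomics 3′ v2 chemistry, and the submitters' processing notes name mm10 and Cell Ranger 2.2. What the authors deposited for each barcode and gene is the raw UMI count, without normalization. The E15, P2 and adult files hold called cells. The E12 file holds 737280 barcodes, of which those with 452 or more UMIs were used. Libraries shared 25 to 60 barcodes per pair, where 33.0 to 48.4 would be shared by size alone.

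UMIs were summed per class and stage and divided by all UMIs of the class (Python 3.11.15, numpy 2.4.6, scipy 1.17.1, pandas 2.3.3). Sums have exact Poisson, shares exact binomial and ratios exact conditional binomial intervals, and a count of 0 has an upper limit from 3 counts. The ratio intervals were tested on simulated Poisson counts, which have counting error only. That simulation leaves out the uneven spread of UMIs over cells, so it cannot show how the intervals hold in these data. Coronary and endocardial levels were also paired by library in an exact two-sided sign-flip permutation test of the log2 ratio (added after seeing the data). Shares were also taken with cells thinned to 500 UMIs. Doublets were scored with the Scrublet of scanpy 1.11.5 and kept in the main values. The members, the pathway list, the marker lists and the classes were chosen with earlier results of these data known. The genes named are the members, the pathway list and the 3 genes most like each member. The split of coronary cells by vein, lymphatic, valve and endocardial markers was made after seeing the data. So was the choice of Htra1, Igf2, Igf2r and Igfbp6 from the pathway list. The alternatives kept the study's limits on UMIs, genes and mitochondrial share, left out likely doublets, or changed the classes, the denominator or the fold. Gene positions are from GENCODE M21 and promoter windows from RefSeq (GRCm38.p6).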

Additional observations from a re-analysis of the deposited data

Results flagged for a closer look

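Some members moved in opposite directions in groups under the same contrast, and none of these differences was tested. Igfbp3 from E15 to P2 was at 1.43-fold in endocardial and 0.308 in coronary cells. The endocardial value was 0.775 without barcodes that carried markers of other cell types, which left 1880 of 2115 endocardial cells at E15 and 384 of 1082 at P2. Igfbp4 from P2 to the adult was at 1.28-fold in endocardial and 0.326 in coronary cells. Against endothelial cells, non-endothelial cells had Igfbp3 at 0.353 at E12, 0.336 at E15 and 2.17 in the adult, Igfbp4 at 0.515, 0.726 and 2.81, and Igfbp5 at 0.611, 0.824 and 2.30. Most adult non-endothelial cells also met the coronary rule.

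Members were also found in E12 barcodes outside the cells used. The 156821 barcodes of 100 or fewer UMIs held Igfbp2 at 19.2 CPM, Igfbp3 at 46.6, Igfbp4 at 740, Igfbp5 at 392, Igfbp7 at 222, Igf1 at 316 and Igf1r at 67.1 CPM. For Igfbp7 this is above the 83.0 CPM of the barcodes used, while the 1453 barcodes between 100 UMIs and the cutoff held it at 19.7 CPM.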

How the results depend on the processing

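Over the alternatives, 203 counts of members past the fold stayed within 1.5 times of the reported count and 24 did not. Of the single ratios 1249 stayed within their interval, 215 left it and 1 reversed. The reversed ratio was Igfbp5 from E15 to P2 in coronary cells. It was 0.815 without cells that carried vein, lymphatic, valve or endocardial markers (added after seeing the data). The fold of 1.5 and the minimum of 100 UMIs cannot change a ratio, and they gave 98 and 91 of the ratios that stayed. The E12 cutoff of 1000 can change only comparisons with E12 (97 stayed, 1 left). With classes from thinned counts 48 stayed and 47 left. Shares of cells with a UMI of a member were also taken after thinning to 500 UMIs, which reads fewer UMIs per cell. Non-endothelial levels in CPM were taken over barcodes of 1000 or more UMIs, which leaves out shallow cells. Together these shares and levels left their interval in 106 of 140 cases. Of the 45 member calls at 2-fold, 14 changed in ratio so as to be lost under 1 or more alternatives, the 1.5-fold limit apart. Calls with too few UMIs to be compared under an alternative are not among these 14. An example is Igfbp2 from E12 to E15 in endocardial cells (54 and 21 UMIs) at a minimum of 100 UMIs. Beside those given in the text, the 14 include Igfbp2 from E12 to E15 in coronary cells (0.514 with means of each cell's CPM). They also include Igfbp7 in non-endothelial cells at E12 (1.97 with the E12 cutoff at 1000) and in the artery class at P2 (1.99 without the marker cells, added). The count for the artery class at P2, 1 in the main values, was 3 with the study's limits, without likely doublets, with classes from thinned counts, with means of each cell's CPM, without the highest cell, without stress barcodes, without other-cell markers and within coronary cells (added), 4 at a fold of 1.5 and 2 without the marker cells (added). In the adult it went from 1 to 2 with classes from thinned counts, without other-cell markers and with endothelial cells of 2 or more marker UMIs (added). For endocardial cells from E15 to P2 it went from 2 to 1 with classes from thinned counts, the denominator without mitochondrial, hemoglobin and ribosomal genes, without other-cell markers, a minimum of 100 UMIs and endothelial cells of 2 or more marker UMIs (added). From E12 to E15 it went from 1 to 2 with classes from thinned counts, 3 at a fold of 1.5 and 0 at a minimum of 100 UMIs, and from P2 to the adult from 4 to 2 without other-cell markers. For non-endothelial cells it went from 2 to 4 at a fold of 1.5 at E12 and from 4 to 1 with classes from thinned counts in the adult. Ratios short of 2-fold also crossed 1 in places, among them Igfbp7 between coronary and endocardial cells at E12, from 0.705 to 1.45 with classes from thinned counts and 1.72 with endothelial cells of 2 or more marker UMIs (added). The cause of these changes was not tested. Between stages, no paired analysis was possible because each stage is 1 library with the same replicate number. The precision is limited by small classes, such as the 113 coronary cells of E12 and the 75 endocardial cells of the adult.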
